A study of Rattus norvegicus with 12 samples.

Results

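The step from 2 to 4 weeks of feeding was followed in rat liver by setting the 3 arrays titled 4w against the 3 arrays titled 2w, which makes 6 of the 12 samples of a fatty liver time course. The 4w group held liver from Sprague-Dawley rats fed a high-fat emulsion for 4 weeks, and the 2w group liver from Sprague-Dawley rats fed the same emulsion for 2 weeks. Feeding served to set up a model of nonalcoholic fatty liver disease, in which fat builds up in hepatocytes without alcohol. Tissue came from the middle of the right lobe, every sample is labelled as 12 weeks old, and no allele or drug is named. The 3 samples of a group are labelled technical replicates and the number of rats behind them is not given. Taken as labelled, the p-values measure the spread between arrays and hold nothing of the spread between rats. The remaining 6 arrays, 3 of normal liver at 0h and 3 at 6w, were left out of the comparison and are quoted as levels.

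Biotin-labelled total RNA was hybridised to the Affymetrix Rat Genome 230 2.0 array, which reads each transcript with one or more probe sets and gives a signal in arbitrary units. The trimmed mean signal was between 500.2 and 500.3 on all arrays, and the median signal between 117 and 128 on the 6 arrays compared. A probe set counted as dim in a group where all 3 arrays had it under their 30th percentile, which lay at signals of 48.1 to 51.4. Correlations of log2 signal were 0.937 to 0.945 within groups and 0.934 to 0.940 between the groups. The 6 hepatocyte markers (Alb, Apoa1, Ttr, Cps1, Serpina1 and Apob) were bright on all 6 arrays, with summed signals of 198613 to 236737 at 4w and 202814 to 217437 at 2w, so the ranges overlapped. Within the sum Apoa1 was lower at 4w without overlap, with 22724, 22394 and 20170 against 29833, 30143 and 27742 at 2w. Apob was higher at 4w without overlap, and neither was called in the comparison below. The 3′ to 5′ log2 ratio of the Gapdh control probe sets, a sign of RNA integrity, was 0.33 ± 0.03 at 4w and 0.47 ± 0.03 at 2w (SD, n = 3 arrays each). These groups did not overlap. The same ratio of the actin control probe sets was 1.18 ± 0.22 at 4w and 1.42 ± 0.12 at 2w, with overlap. The part of RNA integrity in the changes was not tested.

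The liver makes cholesterol from acetyl-CoA when sterol in the endoplasmic reticulum is low, because the transcription factor SREBP-2 is then released to the nucleus, and it disposes of cholesterol by turning it into bile acids or by exporting it into bile. Growth hormone reaches hepatocytes in a pattern that differs between the sexes and acts through STAT5, which switches on its own inhibitors and shapes the male or female set of liver enzymes. Resident macrophages called Kupffer cells, stellate cells and endothelial cells share the tissue with hepatocytes, and neutrophils enter it from blood.

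Across 31042 probe sets, limma with Benjamini-Hochberg adjustment called 180 (0.58%) at an adjusted p under 0.05, of which 65 (0.209%) were higher at 4w and 115 (0.37%) lower at 4w. Counted by gene, each gene read by its brightest probe set, 35 of 13879 genes (0.252%) rose at 4w and 74 (0.533%) fell. Counts of called members in the lists below are to be read beside these shares. The median gene had a log2 change, 4w minus 2w, of -0.03. By the fitted change, which is no bound for genes dim in one group, of the genes that rose 21 changed at least 2-fold and 8 at least 4-fold, and of those that fell, 54 and 15 did so. When all 12 arrays shared one estimate of the spread, 222 genes (1.6%) were called higher and 454 (3.27%) lower, and these included 34 of the 35 and 73 of the 74. Leaving any 1 of the 6 arrays out of the 6-array fit left 0 calls by limma in either direction, with 557 to 679 genes higher and 1004 to 1237 lower at an unadjusted p under 0.05. The same omissions in the 12-array fit, a check added after the data had been seen, left 104 to 133 genes higher and 216 to 287 lower. Centring each array on its median ended 16 of the calls on named genes (Acat2, Alas1, Ccdc126, Cebpd, Col1a2, Dusp1, Hao2, Lbp, Lgals3, Lyve1, Mt2A, Mylip, Rprm, Rsad2, Sgk1 and Vim). Averaging the probe sets of a gene ended 6 (Cebpd, Mt1, Mx2, Per2, RT1-Ba and Rrm2), and quantile normalization 4 (Hao2, Mylip, Obp3 and Rsad2). All 3 arrays of one group lay beyond all 3 of the other for 1723 genes (12.4%) with 4w above and for 2223 (16%) with 4w below.

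**Figure D1:**
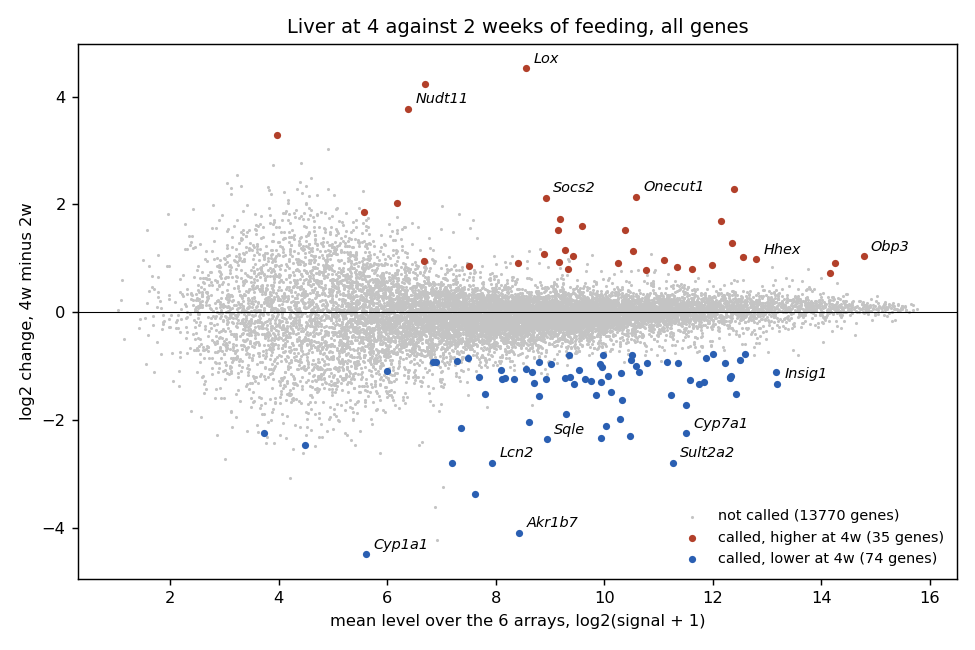
Log2 change from 2w to 4w (y axis, 4w minus 2w) against the mean level of the 6 arrays (x axis, log2 of signal plus 1), 1 point per gene for 13879 genes. The 35 genes that rose at 4w are red and the 74 that fell are blue. Lox, with a change of 4.53, stands at the top and Cyp1a1, with -4.50, at the bottom.

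Genes of cholesterol synthesis were lower at 4w as a group. Of 20 measured, 6 fell and 0 rose, and 19 had all 4w arrays below all 2w arrays, beside 16% of all genes. The median log2 change was -0.72, beside -0.03 over all genes. With 12 arrays in the fit 14 of the 20 were called lower, beside 3.27% of all genes. Sqle, squalene epoxidase, which makes the first oxygenated intermediate of the sterol branch, had signals of 259, 184 and 210 at 4w, against 1071, 1130 and 1130 at 2w. The groups lay far apart and the arrays of each lay close together. The log2 change was -2.36 ± 0.15 (SE, n = 3 arrays a group), 5.13-fold lower at 4w (adjusted p = 0.0132).

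Promoter sequence is shown for 3 of the sterol genes that fell. Idi1 and Msmo1 stand for cholesterol synthesis, whose genes are known to be switched on together through sites for SREBP-2 and its partner NF-Y close to the start. Abcg5, a sterol exporter known as a target of the oxysterol receptor LXR, is shown beside them as a sterol gene of another kind. The sequences are the 250 bases before the start from RefSeq on build GRCr8, 5′ to 3′ on the strand of the gene, with each NF-Y box, CCAAT or its reverse complement ATTGG, in capitals. Idi1 lies on the minus strand at chr17:66547525-66547774, Msmo1 on the plus strand at chr16:29746863-29747112 and Abcg5 on the plus strand at chr6:15717686-15717935.
Idi1: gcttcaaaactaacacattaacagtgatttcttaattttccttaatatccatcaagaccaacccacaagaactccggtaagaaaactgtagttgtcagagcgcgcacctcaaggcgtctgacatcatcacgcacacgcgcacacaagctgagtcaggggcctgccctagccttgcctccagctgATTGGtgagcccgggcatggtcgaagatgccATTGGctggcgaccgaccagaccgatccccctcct
Msmo1: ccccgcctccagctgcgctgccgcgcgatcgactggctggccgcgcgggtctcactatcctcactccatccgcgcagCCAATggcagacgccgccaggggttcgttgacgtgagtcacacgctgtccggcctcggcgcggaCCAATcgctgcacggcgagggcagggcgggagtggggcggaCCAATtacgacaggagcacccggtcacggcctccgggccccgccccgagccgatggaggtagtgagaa
Abcg5: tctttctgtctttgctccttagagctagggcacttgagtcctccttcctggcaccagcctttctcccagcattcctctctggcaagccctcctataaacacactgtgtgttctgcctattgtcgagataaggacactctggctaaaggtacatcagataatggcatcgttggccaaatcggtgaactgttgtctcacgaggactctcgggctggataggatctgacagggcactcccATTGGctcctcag
The Idi1 stretch holds boxes beginning 66 and 35 bases before the start, that of Msmo1 173, 109 and 68 bases before it, and that of Abcg5 a box 13 bases before it. The window searched ran from 250 bases before to 50 after the start, on both strands. It held CCAAT in 12 of 15 cholesterol synthesis genes with an entry (80.0%) and in 7 of 11 sterol sensing and transport genes (63.6%), beside 12549 of 33469 promoters (37.5%). The letters TCACNCCAC, a core of the sterol regulatory element, were in 0 of the 15, 0 of the 11 and 374 of all 33469 windows (1.12%). Of 7 sterol genes that fell and have an entry, 5 had a CCAAT box (Idi1, Msmo1, Abcg5, Insig1 and Mylip), and Acat2 and Dhcr7 had none in this window. Over both lists 19 genes had a box, so it was not particular to those that fell. Mvk and Nsdhl had 5 boxes each and were not called. The Abcg5 window shares 295 bases with that of Abcg8 on the opposite strand, so that pair is not independent. A match is a run of letters and was not tested as a binding site.

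Upstream of squalene, Acat2, the cytosolic thiolase that opens the pathway, had signals of 603, 734 and 813 at 4w, against 1633, 1608 and 1641 at 2w (log2 change -1.19 ± 0.14, adjusted p = 0.0496). The isomerase Idi1, which makes the building block dimethylallyl diphosphate, had 2074, 2100 and 2311 at 4w, against 5503, 5480 and 5345 at 2w (log2 change -1.33 ± 0.09, adjusted p = 0.0178). Downstream of lanosterol, Msmo1, the C4-methylsterol oxidase, had 3264, 3420 and 3599 at 4w, against 8030, 7498 and 7932 at 2w (log2 change -1.19 ± 0.09, adjusted p = 0.0244). Dhcr7, the last reductase before cholesterol, was named after its values were seen. It had 3491, 3326 and 3598 at 4w, against 6714, 6492 and 6726 at 2w (log2 change -0.94 ± 0.09, adjusted p = 0.034). In each of these genes the 4w arrays all lay below the 2w arrays. Hmgcs1, an early synthase of the pathway, and Cyp51, the lanosterol demethylase, missed the threshold with log2 changes of -0.79 (adjusted p = 0.0568) and -0.73 (adjusted p = 0.0528). Lss, which folds oxidosqualene into lanosterol, was the 1 cholesterol gene whose groups overlapped (log2 change -0.14, adjusted p = 0.592).

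Among 16 genes of sterol sensing and transport 3 fell and 0 rose, beside 0.533% and 0.252% of all genes. The 4w arrays were wholly below those of 2w for 10 and wholly above for 3, beside 16% and 12.4% of all genes. The median log2 change was -0.48. Insig1, which holds the SREBP complex in the endoplasmic reticulum and is itself switched on by SREBP, had 5994, 6324 and 5415 at 4w, against 14732, 14872 and 14818 at 2w. It was 2.51-fold lower at 4w (log2 change -1.33 ± 0.10, adjusted p = 0.0218). Abcg5, the subunit that with Abcg8 exports sterol into bile, had 82.6, 62.1 and 87.3 at 4w, against 380, 300 and 359 at 2w (log2 change -2.16 ± 0.18, adjusted p = 0.0263). Its partner Abcg8 was dim at 4w, with 28.6, 47.8 and 22.5 there and 95.5, 153 and 100 at 2w, and did not pass (adjusted p = 0.121). Mylip, a ubiquitin ligase that limits lipoprotein uptake, had 135, 129 and 133 at 4w, against 256, 231 and 233 at 2w (log2 change -0.85 ± 0.10, adjusted p = 0.0459). Srebf2, which encodes SREBP-2, had a log2 change of -0.43 and was not called (adjusted p = 0.143).

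In bile acid synthesis the entry enzyme and a repressor of it were both lower at 4w. Cyp7a1, the rate-limiting enzyme of the classic route, had signals of 1358, 1386 and 1265 at 4w, against 6500, 6765 and 5854 at 2w. It was 4.76-fold lower at 4w with no overlap (log2 change -2.25 ± 0.11, adjusted p = 0.00861). Nr0b2, the nuclear receptor SHP, which is switched on by bile acids and represses Cyp7a1, had 569, 485 and 458 at 4w, against 2283, 2254 and 2013 at 2w. It too was lower, 4.34-fold (log2 change -2.12 ± 0.13, adjusted p = 0.012). These were the 2 of 15 measured genes of this list that fell, and 0 rose, with a median of -0.11. Cyp8b1, the 12α-hydroxylase that sets the share of cholic acid, had 4672, 4750 and 4508 at 4w and 3977, 4047 and 3857 at 2w (log2 change 0.23, adjusted p = 0.343). Hsd3b7, which acts next after Cyp7a1, had 2969, 3080 and 3295 at 4w and 1894, 2246 and 2114 at 2w (log2 change 0.58, adjusted p = 0.127).

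**Figure D2:**
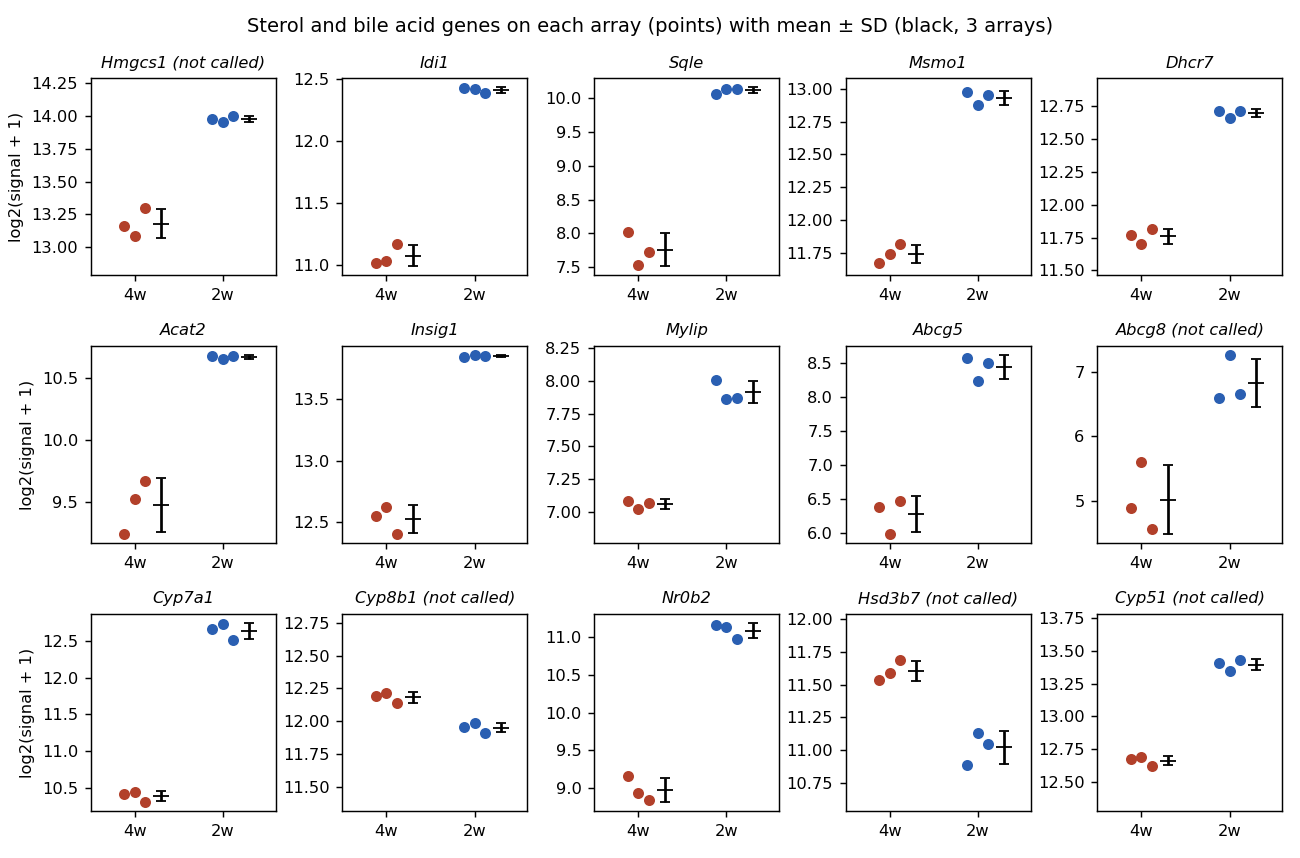
Level on each array (y axis, log2 of signal plus 1, a separate scale for each of the sterol and bile acid genes), with 4w (red) left of 2w (blue) and the mean ± SD of 3 arrays in black. Each point is 1 array, and for Sqle, Idi1, Insig1, Cyp7a1 and Nr0b2 all 3 points of 4w lie below all 3 of 2w.

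Few genes of fat handling were called. Of 18 genes of fatty acid synthesis 1 rose and 0 fell, with a median of -0.28. All 4w arrays lay below the 2w arrays for 10 of them and above for 4, beside 16% and 12.4% of all genes. With 12 arrays 3 were called higher and 7 lower, beside 1.6% and 3.27% of all genes. Elovl5, which lengthens polyunsaturated fatty acids, had 3518, 3499 and 3445 at 4w, against 1952, 1980 and 1937 at 2w, and was 1.78-fold higher at 4w with no overlap (log2 change 0.83 ± 0.08, adjusted p = 0.0369). Fasn, the fatty acid synthase, had a log2 change of -0.62 (adjusted p = 0.0947), Elovl6, which lengthens palmitate, -0.86 (adjusted p = 0.174) and the desaturase Scd 0.47 (adjusted p = 0.187). Acaca, Srebf1 and Me1, which supply malonyl-CoA, its regulator and NADPH, had -0.13, -0.22 and 0.27, none of them called.

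Of 33 genes of fatty acid oxidation 1 rose and 0 fell (median 0.12). All 4w arrays lay above the 2w arrays for 16 of them and below for 6, beside 12.4% and 16% of all genes. With 12 arrays 2 were called higher and 2 lower, beside 1.6% and 3.27% of all genes. Angptl4, a secreted inhibitor of lipoprotein lipase that PPARα switches on, had 5467, 5515 and 5391 at 4w, against 2885, 3069 and 3019 at 2w. It was 1.83-fold higher at 4w (log2 change 0.87 ± 0.09, adjusted p = 0.0364). Cpt1a, the gate of mitochondrial import of fatty acids, had a log2 change of 0.29 (adjusted p = 0.252). Ppara was dim at 2w with 9.8, 11.8 and 17.3 there, while the 4w arrays had 112, 105 and 23.4, a spread too wide for a call (adjusted p = 0.251). None of 23 genes of triglyceride synthesis and lipid droplets was called. All 4w arrays lay below the 2w arrays for 6 of them and above for 1, beside 16% and 12.4% of all genes. Among them the droplet coats Plin2 and Cidec had -0.05 and -0.11 and the acyltransferase Dgat2 -0.02. Cd36, a fatty acid transporter, had -0.17 (adjusted p = 0.471).

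In glucose handling Pck1, the gluconeogenic carboxykinase, had a log2 change of 0.13 (adjusted p = 0.573). Of 31 genes of amino acid breakdown and the urea cycle 1 fell and 0 rose. All 4w arrays lay above the 2w arrays for 15 of them and below for 5, beside 12.4% and 16% of all genes. The gene that fell was Tat, tyrosine aminotransferase, with 3540, 3274 and 3313 at 4w, against 8189, 7468 and 7858 at 2w (log2 change -1.21 ± 0.09, adjusted p = 0.0231). Sds, serine dehydratase, had the opposite sign at 1.06 and missed the threshold (adjusted p = 0.0647), as did Gpt, alanine aminotransferase, at 0.70 (adjusted p = 0.073).

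The growth hormone axis split. Of 15 genes 2 rose and 2 fell, beside 0.252% and 0.533% of all genes. Arrays of 4w were wholly above those of 2w for 4 and wholly below for 6, beside 12.4% and 16% of all genes. Both that rose encode inhibitors induced by STAT5. Socs2 had signals of 980, 980 and 1085 at 4w, against 205, 253 and 239 at 2w, so that every 4w array lay above every 2w array. The level was 4.36-fold higher at 4w (log2 change 2.13 ± 0.12, adjusted p = 0.0109). Cish had 1019, 961 and 887 at 4w, against 332, 326 and 340 at 2w, and was 2.87-fold higher at 4w (log2 change 1.52 ± 0.10, adjusted p = 0.0132). A second Cish probe set had a log2 change of 1.49 and missed the threshold (adjusted p = 0.0538).

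The members that fell bind insulin-like growth factors in blood. Igfbp2 had 184, 227 and 173 at 4w, against 789, 834 and 771 at 2w (log2 change -2.04 ± 0.14, adjusted p = 0.0146). Igfbp1, which insulin represses, had 2372, 2470 and 2213 at 4w, against 5832, 5868 and 5548 at 2w (log2 change -1.29 ± 0.10, adjusted p = 0.0205). In both the groups were well apart. The hormone Igf1 had a log2 change of 0.11 and the growth hormone receptor Ghr 0.42 (adjusted p = 0.143), neither called.

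Of 17 genes that differ between male and female rat liver 2 rose and 0 fell. All 4w arrays lay above the 2w arrays for 11 of them and below for 1, beside 12.4% and 16% of all genes. With 12 arrays 7 were called higher and 0 lower, beside 1.6% and 3.27% of all genes. The list mixes male-biased and female-biased genes, and its median log2 change was 0.32. Obp3, an α2u-globulin family gene made by male liver, had 40948, 38475 and 41853 at 4w, against 20770, 18095 and 20281 at 2w (log2 change 1.04 ± 0.10, adjusted p = 0.0365). Hao2, a peroxisomal hydroxyacid oxidase, had 24282, 23715 and 23156 at 4w, against 14191, 14473 and 14028 at 2w (log2 change 0.74 ± 0.09, adjusted p = 0.0496). Cyp2c12, the P450 of female rat liver, had 856, 912 and 984 at 4w and 420, 427 and 538 at 2w (adjusted p = 0.073), while Cyp2c11, its male counterpart, had a log2 change of 0.21. Obp3 belongs to a family of near-identical copies, so its probes may read more than 1 gene. At 0h Cyp2c12 had 33576, 36489 and 31864, far above every fed array, so levels quoted at 0h come from liver that stands apart in this enzyme. The labels used here do not state the sex of the rats of any group.

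Of 13 transcription factors of hepatocytes 2 rose and 1 fell, beside 0.252% and 0.533% of all genes, with a median of -0.18. Arrays of 4w were wholly above those of 2w for 2 and wholly below for 6, beside 12.4% and 16% of all genes. Onecut1, also called HNF6, had 3191, 3458 and 3116 at 4w, against 729, 759 and 717 at 2w, and was 4.42-fold higher at 4w (log2 change 2.14 ± 0.09, adjusted p = 0.00861). A second Onecut1 probe set was 1.02 higher on the log2 scale and was not called (adjusted p = 0.125). Foxa2, a pioneer factor of liver genes, had 3106, 3105 and 2989 at 4w, against 1545, 1639 and 1537 at 2w (log2 change 0.96 ± 0.09, adjusted p = 0.0327). Hhex, a homeobox factor of liver formation outside that list, had 10083, 10030 and 9920 at 4w, against 4915, 5032 and 5284 at 2w, and was 1.97-fold higher at 4w (adjusted p = 0.0313). For all 3 the groups were wholly apart, which was a condition of the choice for those named by size. Cebpd, a factor induced in the acute phase, had 177, 239 and 213 at 4w, against 499, 512 and 477 at 2w (log2 change -1.25, adjusted p = 0.0463), but its other probe sets had -1.69 and 0.52, neither called. Hnf4a had a log2 change of -0.23 with overlapping arrays.

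The largest fitted rise of all genes was that of Lox, lysyl oxidase, which cross-links collagen and elastin. Lox had signals of 1869, 1884 and 1706 at 4w, against 71.2, 85 and 77.8 at 2w. The 2w arrays were close to the dim level and the 4w arrays far above it, a difference of 23.1-fold (log2 change 4.53 ± 0.11, adjusted p = 0.00323). A second Lox probe set, with 594, 629 and 651 at 4w and 35.6, 26.4 and 40 at 2w, was dim at 2w and also called, at least 12.4-fold higher at 4w (adjusted p = 0.00861). Other matrix and stellate cell genes ran the other way. Of 38 measured, Lox rose and 2 fell, and the median was -0.54. All 4w arrays lay below the 2w arrays for 25 of them and above for 2, beside 16% and 12.4% of all genes. With 12 arrays 17 were called lower and 1 higher, beside 3.27% and 1.6% of all genes.

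The 2 that fell were Col1a2, the α2 chain of type I collagen, with 309, 341 and 319 at 4w, against 582, 645 and 625 at 2w (log2 change -0.93, adjusted p = 0.0435), and Vim. Vim, vimentin, the filament of mesenchymal cells, had 1080, 1135 and 1115 at 4w, against 2040, 1852 and 1896 at 2w (log2 change -0.80, adjusted p = 0.0496). Col1a1, the partner chain, and lumican, Lum, had -0.80 and -0.87 and were not called. Tgfb1 had 15.5, 49.2 and 95 at 4w and 206, 231 and 250 at 2w, too variable at 4w for a call (adjusted p = 0.227). Acta2, the actin of activated stellate cells, and Timp1, an inhibitor of matrix proteases, had -0.29 and -0.44, neither called. The summed signal of the 38 genes, Lox among them, was 28631 to 30288 at 4w and 35389 to 37528 at 2w, with 2 members dim at 4w and 1 at 2w.

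**Figure D3:**
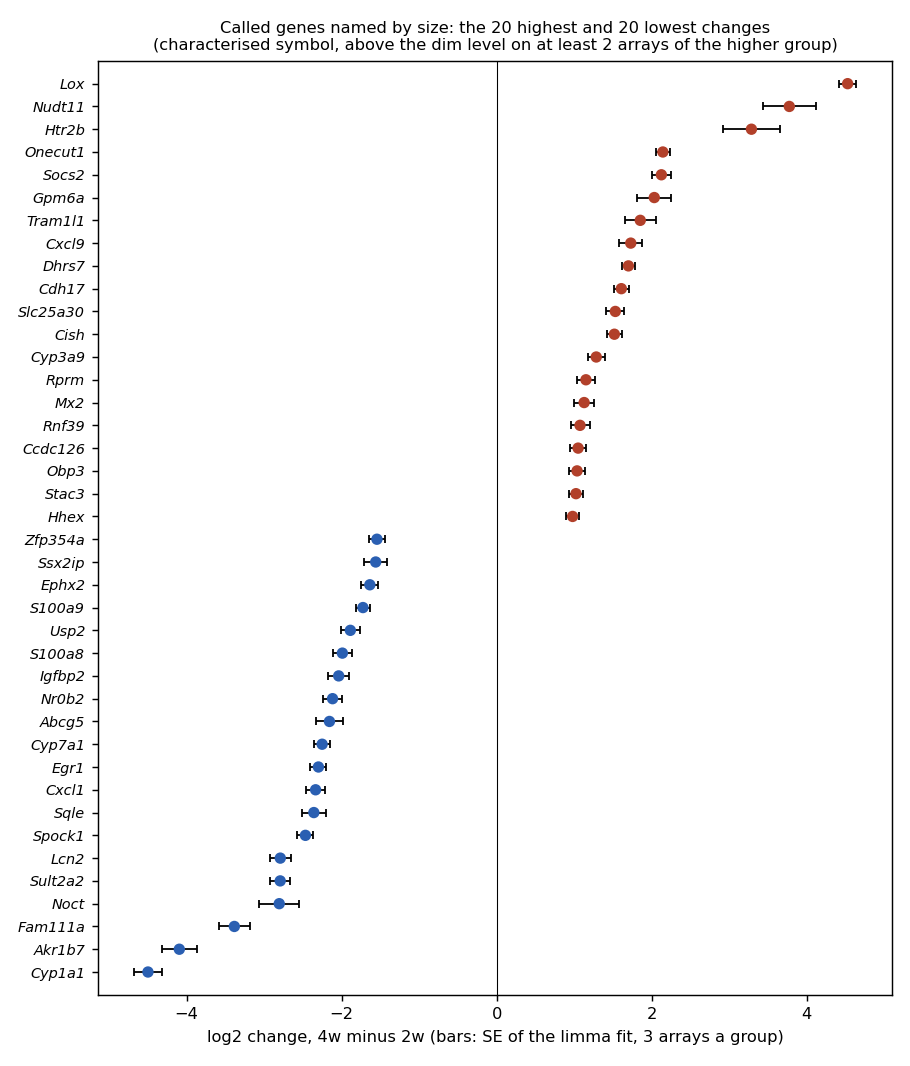
Fitted log2 change, 4w minus 2w (x axis), of the 20 highest and 20 lowest called genes that have a characterised symbol and lie above the dim level on at least 2 arrays of their higher group, 1 row per gene, with bars for the SE (3 arrays a group), red for higher at 4w and blue for lower at 4w. Lox at 4.53 is at the top and Cyp1a1 at -4.50 at the bottom, and fitted changes of genes that are dim in one group are no bounds.

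Other genes with large rises belong to no shared list. Dhrs7, a short-chain dehydrogenase, had 8311, 8102 and 8172 at 4w, against 2474, 2560 and 2532 at 2w (log2 change 1.70 ± 0.08, adjusted p = 0.00861). A second Dhrs7 probe set had a much smaller log2 change, 0.24, and was not called (adjusted p = 0.391). Cdh17, liver-intestine cadherin, had 1379, 1353 and 1297 at 4w, against 435, 419 and 465 at 2w (log2 change 1.61, adjusted p = 0.0112). Slc25a30, a mitochondrial carrier, had 2266, 2272 and 2263 at 4w, against 722, 751 and 888 at 2w (log2 change 1.53, adjusted p = 0.0215). None of the 3 had overlapping groups, which was a condition for being named by size. Nudt11, a phosphohydrolase of inositol pyrophosphates, had 313, 273 and 341 at 4w and was dim at 2w with 18.9, 14.7 and 35.6, which makes it at least 6.12-fold higher (adjusted p = 0.0313). Such a bound sets the 4w mean against the dim level of the 2w arrays. Gpm6a, a membrane glycoprotein known from neurons, was at least 2.9-fold higher and Tram1l1 at least 1.79-fold higher on the same terms (adjusted p = 0.0444 for each). Htr2b, a serotonin receptor, had 33.3, 68.6 and 48.3 at 4w and was dim at 2w with 6.4, 3.1 and 3.2, and no bound could be set (adjusted p = 0.0457). The rest of the 20 named by size were Stac3, a muscle adaptor protein, Rprm, a cell cycle arrest factor, Rnf39 and Ccdc126, each between 1.02 and 1.15 on the log2 scale.

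Among detoxification genes Cyp1a1, the P450 that the aryl hydrocarbon receptor switches on, had signals of 10.5, 9.8 and 7.7 at 4w, against 191, 251 and 257 at 2w. It was dim on every 4w array, so the fall is given as at least 4.64-fold (adjusted p = 0.00861). It was the 1 gene of 9 on the aryl hydrocarbon receptor list that fell, and 0 rose. Cyp1a2, a close relative under the same receptor, had a log2 change of -0.20 (adjusted p = 0.445). Of 26 genes of P450 families 2 and 3, 1 rose and 0 fell (median 0.14). That was Cyp3a9, with 9042, 8014 and 7468 at 4w, against 3260, 3407 and 3365 at 2w (log2 change 1.29 ± 0.11, adjusted p = 0.0291).

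Akr1b7, an aldo-keto reductase, had 60.1, 89.4 and 104 at 4w, against 1338, 1472 and 1470 at 2w, which is 17.1-fold lower at 4w (log2 change -4.09 ± 0.22, adjusted p = 0.00965). Of 29 genes of phase II conjugation 2 fell and 0 rose, beside 0.533% and 0.252% of all genes. Arrays of 4w were wholly below those of 2w for 7 and wholly above for 10, beside 16% and 12.4% of all genes. Sult2a2, a sulfotransferase of bile acids and steroids, had 941, 875 and 1001 at 4w, against 6686, 5680 and 7237 at 2w (log2 change -2.79 ± 0.13, adjusted p = 0.00861). Gsta3, a glutathione transferase, had 912, 816 and 835 at 4w, against 1850, 1829 and 1951 at 2w (log2 change -1.14, adjusted p = 0.029). Ephx2, the soluble epoxide hydrolase, had 769, 773 and 660 at 4w, against 2322, 2342 and 2172 at 2w (log2 change -1.64, adjusted p = 0.0146). All 4 had every 4w array below every 2w array, which was a condition of the choice for Akr1b7, Sult2a2 and Ephx2, named by size. Akr1b7, Sult2a2, Gsta3 and Cyp3a9 have close copies in the rat genome, and their probes may read more than 1 of them.

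Of 26 genes of metal, iron and heme handling 4 fell and 0 rose, beside 0.533% and 0.252% of all genes (median -0.11). Arrays of 4w were wholly below those of 2w for 11 and wholly above for 3, beside 16% and 12.4% of all genes. The metallothionein Mt1, which binds zinc and copper, had 6466, 6219 and 5943 at 4w, against 13444, 13768 and 13238 at 2w (log2 change -1.12, adjusted p = 0.0247), and Mt2A had a log2 change of -0.95 (adjusted p = 0.0329). A second, much dimmer Mt1 probe set had 0.44 and was not called (adjusted p = 0.315). Tfrc, the transferrin receptor, had 3389, 3452 and 3255 at 4w, against 7814, 8164 and 7176 at 2w (log2 change -1.20, adjusted p = 0.0255). Alas1, the first enzyme of heme synthesis, had 4350, 4358 and 4151 at 4w, against 7804, 7827 and 8068 at 2w (log2 change -0.88, adjusted p = 0.0349). In all 4 the groups did not overlap. Hamp, hepcidin, the hormone that closes iron export, ran the other way with 11130, 12637 and 11321 at 4w and 6919, 6719 and 6098 at 2w, and missed the threshold (log2 change 0.83, adjusted p = 0.063).

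Of the 45 lists, that of neutrophil genes had the lowest median. Of 12 measured neutrophil markers and CXC chemokines 4 fell and 0 rose, and the median log2 change was -1.86. All 4w arrays lay below the 2w arrays for 8 of them, beside 16% of all genes. Lcn2, a siderophore-binding protein of neutrophils and stressed hepatocytes, had 77.8, 98.4 and 103 at 4w, against 661, 636 and 641 at 2w. It was 6.92-fold lower at 4w (log2 change -2.79 ± 0.14, adjusted p = 0.00861). Cxcl1, a chemokine that draws neutrophils, had 487, 394 and 440 at 4w, against 2323, 2213 and 2126 at 2w (log2 change -2.34 ± 0.12, adjusted p = 0.00861). The calgranulins S100a8 and S100a9, which form the main calcium-binding dimer of neutrophils, had log2 changes of -1.99 ± 0.12 (adjusted p = 0.0132) and -1.72 ± 0.09 (adjusted p = 0.00965). S100a8 had 567, 624 and 709 at 4w, against 2529, 2356 and 2649 at 2w. S100a9 had 1689, 1536 and 1594 at 4w, against 5371, 5282 and 5272 at 2w, and neither gene's groups overlapped. The summed signal of the 12 genes was 3069 to 3242 at 4w, with 3 members dim, and 11120 to 11499 at 2w, with 1 dim. In whole liver, fewer cells of a type and less RNA per cell cannot be told apart.

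No Kupffer cell or macrophage marker of 18 was called (median -0.57). Yet 16 had all 4w arrays below the 2w arrays and 1 above, beside 16% and 12.4% of all genes. With 12 arrays 13 were called lower, beside 3.27% of all genes. Cd163, the haemoglobin scavenger receptor, had 416, 530 and 416 at 4w and 966, 901 and 816 at 2w (adjusted p = 0.0773), and Csf1r, the receptor that keeps macrophages alive, had 1241, 1505 and 1209 at 4w and 2258, 2289 and 2271 at 2w (adjusted p = 0.0818). Lgals3, galectin-3, was the 1 of 21 genes of activated macrophages and CC chemokines that fell (log2 change -0.92, adjusted p = 0.0364). The cytokines Tnf and Il1b had 0.38 and -0.24, neither called. Summed macrophage markers were 57122 to 57805 at 4w and 71129 to 75824 at 2w, with none dim in either group.

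Markers of several other cells were also lower at 4w in sum. Liver endothelial markers, 20 genes, summed to 20831 to 21308 at 4w and 24816 to 25050 at 2w, and 1 fell. That was Lyve1, a hyaluronan receptor of sinusoids, with 3023, 3208 and 3185 at 4w, against 5441, 5428 and 5195 at 2w (log2 change -0.77, adjusted p = 0.0485). Red cell and platelet genes, 7 in all, summed to 63932 to 71639 at 4w and 72632 to 76128 at 2w, and the platelet chemokine Pf4 fell (log2 change -1.11, adjusted p = 0.0444). Lymphocyte markers (22 genes, 5919 to 6696 at 4w and 6754 to 7348 at 2w) and bile duct markers (10 genes, 1957 to 2251 at 4w and 2264 to 2490 at 2w) had 0 calls. By member, 17 of the 22 lymphocyte markers overlapped between groups, 3 were wholly lower at 4w and 2 wholly higher. With 12 arrays 1 of them was called higher and 0 lower. The groups overlapped for 9 of the 10 bile duct markers. Pancreas genes were higher at 4w in sum only, 11 genes with sums of 23754 to 26066 at 4w (4 dim) and 19938 to 21417 at 2w (1 dim), also with 0 calls. Their members shared no direction, with 6 log2 changes above 0 and 5 below, and 1 wholly higher and 2 wholly lower at 4w. The part of these cells in the changes of matrix, neutrophil, macrophage and proliferation genes was not tested.

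Antigen presentation and interferon genes gave a mixed picture. Of 7 genes of MHC class II presentation 1 fell (median -0.60). All 4w arrays lay below the 2w arrays for 6 of them, beside 16% of all genes. With 12 arrays 6 were called lower, beside 3.27% of all genes. RT1-Ba, a class II α chain, had 660, 734 and 688 at 4w, against 1340, 1334 and 1369 at 2w (log2 change -0.96, adjusted p = 0.0347). Of its 3 other probe sets 2 had the opposite sign and none was called. RT1-Bb, its β chain, had 703, 639 and 688 at 4w and 1199, 1124 and 1108 at 2w and missed the threshold (adjusted p = 0.0585). Cxcl9, a T-cell chemokine induced by interferon γ, was the 1 of 14 interferon γ genes that rose, with 1055, 1128 and 1009 at 4w, against 326, 373 and 269 at 2w (log2 change 1.73 ± 0.15, adjusted p = 0.0307). A second Cxcl9 probe set was called too (log2 change 1.84, adjusted p = 0.0415).

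Of 29 genes of the type I interferon response 1 rose and 1 fell. Mx2, an antiviral GTPase, had 2132, 2016 and 2465 at 4w, against 1030, 921 and 1067 at 2w (log2 change 1.13, adjusted p = 0.0459), but a second Mx2 probe set had -0.02. Rsad2, viperin, had 514, 487 and 489 at 4w, against 902, 836 and 853 at 2w (log2 change -0.80, adjusted p = 0.0474).

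All 38 measured genes of DNA replication and mitosis had a log2 change below 0, with a median of -0.64. But 2 passed the test and 7 did so with 12 arrays, beside 0.533% and 3.27% of all genes called lower. Rrm2, the small subunit of ribonucleotide reductase, had 399, 437 and 493 at 4w, against 1132, 1098 and 1099 at 2w (log2 change -1.33, adjusted p = 0.0291). A second, dimmer Rrm2 probe set had -0.36 with overlapping arrays and was not called (adjusted p = 0.605). Cdk1, the kinase of mitotic entry, had 143, 121 and 144 at 4w, against 289, 313 and 340 at 2w (log2 change -1.20, adjusted p = 0.0415). Mki67, which marks cycling cells, had -0.94 and was not called (adjusted p = 0.102). The arrest genes Cdkn1a and Gadd45a had -0.04 and -0.30, neither called.

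Of 25 immediate early genes, switched on within minutes of a stimulus, 1 rose and 2 fell, beside 0.252% and 0.533% of all genes. Arrays of 4w were wholly above those of 2w for 5 and wholly below for 9, beside 12.4% and 16% of all genes. Egr1, a zinc finger factor, had 684, 635 and 616 at 4w, against 3005, 3143 and 3394 at 2w, and was 4.92-fold lower at 4w (log2 change -2.30 ± 0.10, adjusted p = 0.00861). Sgk1, a kinase that glucocorticoids also switch on, fell by 0.89 on the log2 scale (adjusted p = 0.0435). Dusp1, the phosphatase that ends MAP kinase signals, ran the other way with 1613, 1759 and 1685 at 4w, against 942, 888 and 849 at 2w (log2 change 0.92, adjusted p = 0.0433). Fos was dim at 2w and on 2 of 3 arrays at 4w.

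Of 18 clock genes 1 fell and 0 rose. Per2, a core repressor, had 394, 424 and 399 at 4w, against 998, 928 and 914 at 2w (log2 change -1.22, adjusted p = 0.0229). A second, much dimmer Per2 probe set had -0.31 with overlapping arrays and was not called (adjusted p = 0.651). Nr1d1 and Dbp, clock outputs with large daily swings, had low signals in both groups and log2 changes of -0.41 and -1.22, neither called. Among genes named by size, Noct, a rhythmic phosphatase, had 56, 74.2 and 38.4 at 4w, against 348, 426 and 387 at 2w (log2 change -2.80, adjusted p = 0.0331). Usp2, a rhythmic deubiquitinase, had 317, 345 and 318 at 4w, against 1372, 1110 and 1168 at 2w (log2 change -1.89, adjusted p = 0.0132). The labels used here do not say at what time of day tissue was taken.

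The remaining large falls were those of Fam111a, a protease linked to DNA replication, with 75.8, 59.9 and 46.8 at 4w, against 610, 684 and 606 at 2w (log2 change -3.38, adjusted p = 0.0112), and 3 smaller ones. Zfp354a, a zinc finger protein, and Ssx2ip, a centrosome protein, fell by 1.54 and 1.56 on the log2 scale. Spock1, a proteoglycan, was dim at 4w and at least 1.05-fold lower there. Of 22 acute phase proteins 2 fell and 0 rose, beside 0.533% and 0.252% of all genes. Arrays of 4w were wholly below those of 2w for 5 and wholly above for 2, beside 16% and 12.4% of all genes. A2m, α2-macroglobulin, fell, with 598, 630 and 646 at 4w, against 1539, 1527 and 1548 at 2w (log2 change -1.30, adjusted p = 0.0151). So did Lbp, which binds endotoxin (log2 change -0.77, adjusted p = 0.0482).

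**Figure D4:**
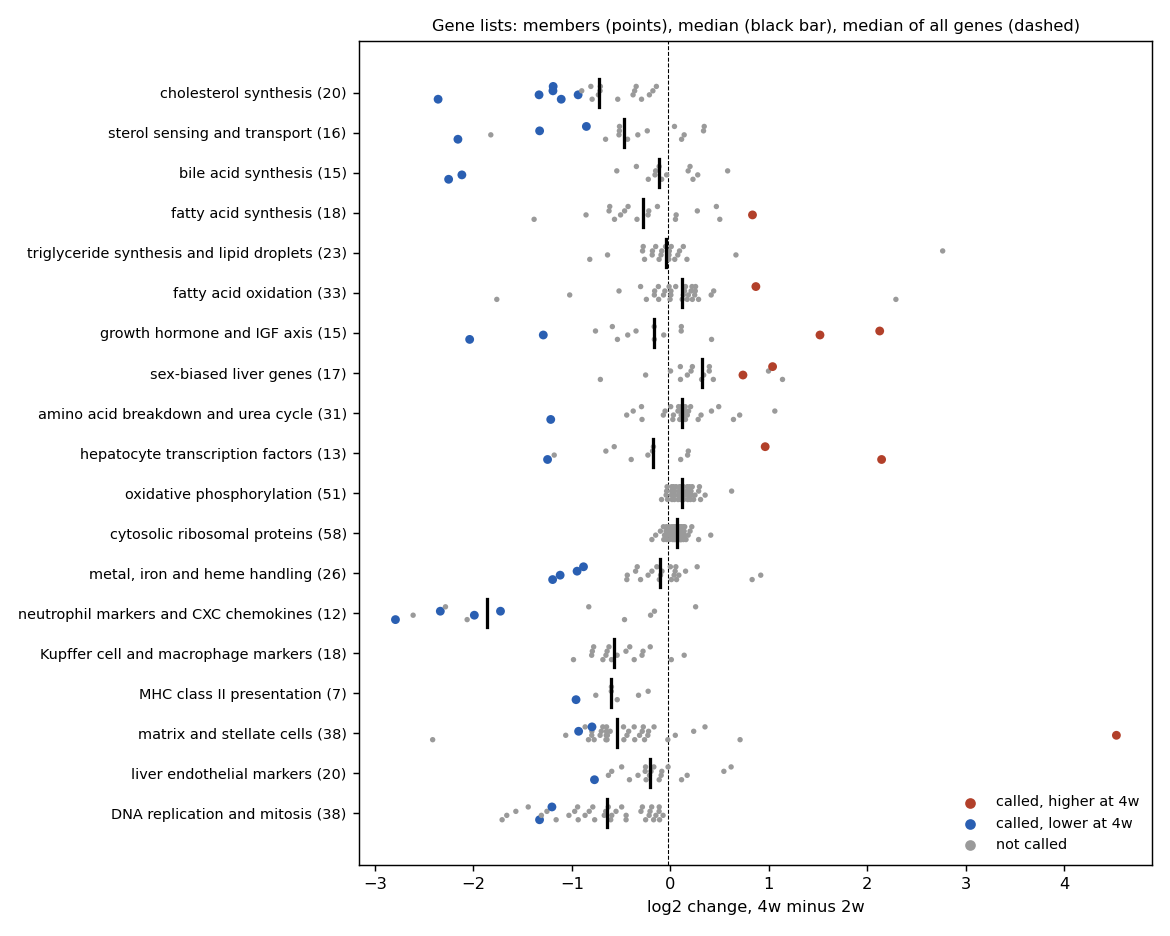
For each gene list (1 row), the log2 change of every measured member from 2w to 4w (x axis, 4w minus 2w) as a point, the median as a bar, the median of all genes as a dashed line, and called genes in red (higher at 4w) or blue (lower at 4w). Cholesterol synthesis (median -0.72) and neutrophil genes (median -1.86) lie left of the median of all genes, -0.03.

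Some lists with few or no calls leaned to one side. Of 51 oxidative phosphorylation genes 26 had all 4w arrays above the 2w arrays and 0 below, beside 12.4% and 16% of all genes, with a median of 0.12 that was 0.04 under quantile normalization. None was called, and the largest log2 change was 0.62, that of Ndufa5. Of 17 genes of MHC class I and the immunoproteasome 11 lay above and 2 below (median 0.23). The 18 heat shock chaperones went both ways, with 4 above and 9 below, each over the share of all genes (median -0.17). Hspb1, a small chaperone, had -1.15 (adjusted p = 0.0663), and Hspa5, the chaperone of the endoplasmic reticulum, -0.29. Fgf21, a fasting hormone of liver, had overlapping signals and a log2 change of -0.78 (adjusted p = 0.653). Albumin, Alb, had 0.16.

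Set against the other time points, many of the changed genes had their highest or lowest signals of the whole course at 4w. For 19 of the 35 genes that rose (54.3%) all 4w arrays lay above all 9 other arrays, and for 47 of the 74 that fell (63.5%) all lay below them. Among genes whose 4w and 2w arrays did not overlap, 407 of 1723 (23.6%) and 497 of 2223 (22.4%) did so. These shares are descriptions, since both sets were chosen on the 4w arrays.

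For the genes named by size, levels at 6w were also set against 4w, with 70 of all genes (0.504%) called between those groups by the same limma test. That comparison shares the 4w arrays with the one above. Of the 40 genes 19 were called. Lox had 540, 480 and 690 at 0h, 71.2, 85 and 77.8 at 2w, 1869, 1884 and 1706 at 4w and 231, 183 and 199 at 6w, so its 4w arrays were the highest of the 12. The log2 change, 6w minus 4w, was -3.15 ± 0.13 (adjusted p = 0.00634). Socs2 had 565, 513 and 611 at 0h and 444, 435 and 476 at 6w, both below its 4w level (6w minus 4w -1.17, adjusted p = 0.0293). Cish had 396, 345 and 424 at 0h and 168, 198 and 225 at 6w (6w minus 4w -2.28, adjusted p = 0.0146). Hhex and Foxa2 at 0h, 2w and 6w were likewise under their 4w level on every array.

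For other genes the 6w arrays lay further from 2w than the 4w arrays did, or close to them. Cxcl9 had 729, 690 and 545 at 0h and 4925, 5060 and 4357 at 6w, above its 4w level (6w minus 4w 2.17, adjusted p = 0.0116). Egr1 had 911, 885 and 881 at 0h and 180, 213 and 240 at 6w, below its 4w level (6w minus 4w -1.62, adjusted p = 0.0293). Obp3, with 38892, 37417 and 37081 at 6w, stayed near its 4w level (6w minus 4w -0.10, adjusted p = 0.735).

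Several genes had their lowest signals at 4w. Cyp1a1 had 26.8, 49.8 and 48.1 at 0h and 729, 814 and 759 at 6w, the one group above 2w. Nr0b2 had 1088, 1163 and 1162 at 0h and 1930, 1931 and 2014 at 6w (6w minus 4w 1.96, adjusted p = 0.0146). Cyp7a1 had 9244, 8440 and 9355 at 0h and 2070, 2008 and 2213 at 6w, above 4w and below 2w, and this step was not called (adjusted p = 0.102). Sqle showed the same order of levels, with 1611, 1664 and 1774 at 0h and 307, 355 and 353 at 6w. RT1-Ba, with 2266, 2462 and 2302 at 0h, had 7718, 7453 and 7336 at 6w.

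**Figure D5:**
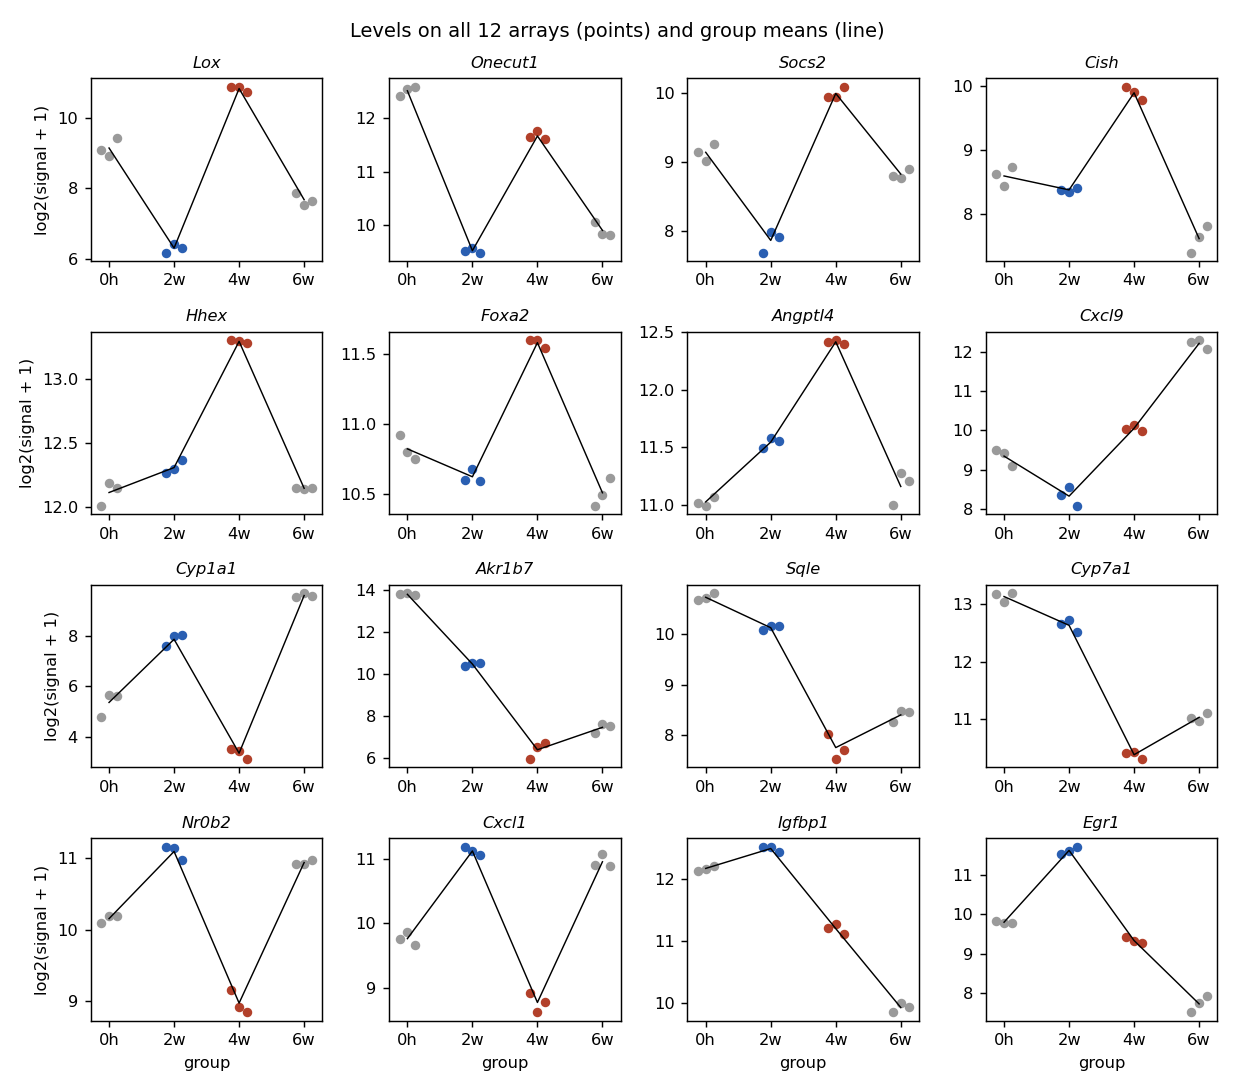
Level on each of the 12 arrays (y axis, log2 of signal plus 1, a separate scale for each gene) at 0h, 2w, 4w and 6w (x axis) for 16 genes, 1 point per array and a line through the group means, with 4w in red and 2w in blue. Lox, Socs2 and Cish have their highest points at 4w, and Cyp1a1, Cyp7a1 and Nr0b2 their lowest.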

How the data were processed

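Liver RNA of 12 samples was read on Affymetrix Rat Genome 230 2.0 arrays, and 3 4w and 3 2w arrays were compared. The deposited values are intensity signals on a linear scale, 1 per probe set. The submitters' processing notes name GCOS 2.0. Leaving out the top and bottom 2% of values, the mean was 500.2 to 500.3 on each array, so the deposited intensity values had been scaled to a shared level, by a step the file headers do not describe. No read depth applies, and the number of arrays limits the precision.

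From these, log2(signal + 1) was fitted for 31042 probe sets (57 array controls left out) by lmFit and eBayes from limma 3.58.1, run under R 4.3.3, with a mean per group, no filter, Benjamini-Hochberg adjustment over all of them and calls at an adjusted p under 0.05. An exact permutation test of 3 against 3 arrays cannot go below 0.1 for a single gene, two-sided, and was not used. Of the probe sets, 19858 carry 1 gene symbol, 11121 none, 23 several, and 40 disagree with their accession and went unnamed. Symbols were updated with RefSeq GRCr8, and 1492 stayed as deposited. Each of 13879 genes was read by its brightest probe set over the 6 arrays. A gene dim in its lower group gets a fold of "at least". The genes named were the 20 highest and 20 lowest called changes without overlap, among genes with a characterised symbol (not LOC or RGD) that lay above the dim level on at least 2 arrays of the higher group, a set of benchmark genes whatever their result, and up to 4 called members of each list in each direction. The genes, the 45 lists and the comparison were chosen with earlier results of these data known. The fitting steps were tested on simulated data. Fits with a filter, a pseudocount of 16, other scalings, other eBayes options, all 12 arrays, replicate numbers as a block, the mean of a gene's probe sets and each array left out were run as alternatives. Some genes of the lists are not reported here by name.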

Additional observations from a re-analysis of the deposited data

How the results depend on the processing

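Counts of calls depended strongly on how the spread was estimated. Against 65 probe sets higher and 115 lower, or 35 and 74 genes, a filter at the 30th percentile gave 234 and 416 (127 and 290 genes), all 12 arrays in the fit 393 and 683 (222 and 454 genes), the trend and robust options 834 and 1015 (535 and 693 genes) and a pseudocount of 16 114 and 176 (58 and 111 genes). The mean of a gene's probe sets gave 88 and 184 genes, median centring 58 and 80 probe sets (28 and 50 genes) and quantile normalization 72 and 107 (37 and 71 genes). Without any 1 of the 6 arrays the 6-array fit made 0 calls by limma, with 1384 to 1671 probe sets higher and 1919 to 2453 lower at an unadjusted p under 0.05, and 557 to 679 and 1004 to 1237 genes. The same omissions in the 12-array fit, added after the data had been seen, gave 194 to 269 probe sets higher and 317 to 439 lower (104 to 133 and 216 to 287 genes), and included 34 of the 35 genes and 70 to 71 of the 74. With the replicate number as a block limma called 0 in either direction, with 1591 and 2220 probe sets (628 and 1135 genes) at an unadjusted p under 0.05. Deviations from the group mean correlated at 0.038, 0.024 and 0.071 between same-numbered 4w and 2w arrays. Each array correlated best with its own number, but the values were low, and the numbers were not taken to pair the arrays. No threshold for this had been set beforehand, and the choice matters, since the block fit made 0 calls.

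Of the 40 genes named by size, 19 were called between 6w and 4w, and 31 with 12 arrays. A change of sign occurred for 4 named genes, none of them called in the 6-array fit. Cdkn1a had 0.016 with median centring and -0.11 to 0.0088 with 1 array left out, the last without the second 2w array. Dgat2 had 0.027 with the mean of its probe sets, 0.036 with centring and -0.038 to 0.0020 with 1 array left out, the last without the third 2w array. Me1 had -0.035 with the mean of its probe sets and Plin2 0.0036 with centring, while Me1 was called higher with the trend and robust options (adjusted p = 0.0234). The cause was not tested. The median of all genes was -0.03, 0.02 after median centring and -0.01 after quantile normalization. Of the 45 list medians, 11 changed sign under at least 1 setting, and none of these 11 is quoted in the results. Probe sets under the dim level on most arrays limit what can be read for genes such as Fos, Tnf, Abcg8 and Ppara.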
